A study of Marchantia polymorpha and Arabidopsis thaliana and Oryza sativa Japonica Group with 80 samples.

Results

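The ABF and class I HD-ZIP transcription factors studied here are 10 Arabidopsis genes listed by their AGI identifiers: ABF1 (AT1G49720), ABF2 (AT1G45249), ABF3 (AT4G34000), ABF4 (AT3G19290), ABI5 (AT2G36270), AREB3 (AT3G56850), HB7 (AT2G46680), HB12 (AT3G61890), HB6 (AT2G22430) and HB5 (AT5G65310). No cutoff on a measured value was used, but the choice was made with earlier results of these data known. The study followed salt-treated plants of several species in 80 samples, of which 34 RNA sequencing libraries are used here. A time course in Col-0, the wild type, has 8 times from 0 h (before salt) to 72 h in medium with 100 mM NaCl, sampled at 1, 3, 6 and 12 h, then at 24 and 48 h, with 2 libraries each. A mutant experiment covers a line labelled as a wrky25/33 knockout and Col-0 at 0, 2 and 24 h, with 3 libraries for each genotype and time. All groups are seedlings 7 days old, cultured in liquid 1/2 MS medium under continuous light. The labels name no allele and give no number of plants per library. Every library after 0 h was in salt, so the effect of salt and that of elapsed time cannot be told apart. The 10 genes are 10 of 34218 in the mutant experiment, and all 10 passed the filter on low counts there. The time course table has 24060 genes and holds 8 of the 10, all of which passed. ABF1 and ABF3 were not analysed here in the time course.

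Abscisic acid (ABA) is the hormone that plants make under drought and salt. Bound ABA lets PYR/PYL receptors hold clade A PP2C phosphatases, which frees SnRK2 kinases to phosphorylate the ABF proteins. ABFs are basic leucine zipper (bZIP) factors that bind ABA-responsive elements in the promoters of protective genes such as RD29B and RAB18. ABI5 and AREB3 belong to the same bZIP group, and ABI5 is best known for arresting growth at germination. HB7, HB12, HB6 and HB5 are homeodomain-leucine zipper class I factors. HB7 and HB12 are near relatives that are induced by ABA and water deficit, HB6 restrains ABA responses, and HB5 has been described as a regulator of ABA responsiveness in seedlings. These proteins are also controlled after transcription, which RNA counts do not show.

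Values are CPM, read counts scaled to a common library size, by edgeR's TMM method. CPM is not divided by gene length, so levels are compared within a gene and not between genes. Libraries held 18404537 to 24148376 counted reads in the time course and 17431071 to 41887006 in the mutant experiment. Changes are log2 fold changes with standard errors (SE) from edgeR's quasi-likelihood test, and a gene is called where its p, adjusted by Benjamini-Hochberg over all 15407 genes tested in the time course or 19316 in the mutant experiment, is below 0.05. In bulk seedlings, fewer cells of a type and less RNA per cell cannot be told apart. The submitters call the replicates biological, but nothing says which came from separate cultures, so p-values measure the spread between these libraries.

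The named knockout could not be checked from the counts. WRKY25 had 44.5, 33.2 and 42 CPM in the line labelled wrky25/33 at 0 h, against 41.2, 24.7 and 41.1 CPM in Col-0. WRKY33 had 44.5, 30.7 and 164 CPM in that line at 0 h, against 30, 20.5 and 229 CPM in Col-0. Neither gene was called between the genotypes at 0, 2 or 24 h (adjusted p = 1 in each edgeR test), and reads outside an insertion can be counted in a knockout, so "the line labelled wrky25/33" is used throughout. The libraries of batch 3 at 0 h stand apart for WRKY33 in both genotypes. Results that rest on batch 3 are given below with and without it.

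Most of the genes rose early, and few were called after 3 h. In the time course 6 of the 8 genes measured rose by 1 h, while 8.74% of all genes tested were called higher at that time and 5.45% lower. The same 6 (HB7, HB12, HB6, ABF2, ABI5 and ABF4) were called higher at 3 h, against 8.5% of all genes higher and 6.55% lower. At 6 h only HB7 among the 8 was still called higher (background 4.26% higher, 2.24% lower). At 12 h none of the 8 was called in the edgeR test (2.6% higher, 1.64% lower), where 2965 of all genes had an unadjusted p below 0.05. The median log2 change of the 8 was 1.48 after 1 h, 1.04 after 3 h, 0.28 after 6 h and 0.02 after 12 h, with the median of all genes at -0.02, -0.02, -0.01 and -0.01.

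**Figure D1:**
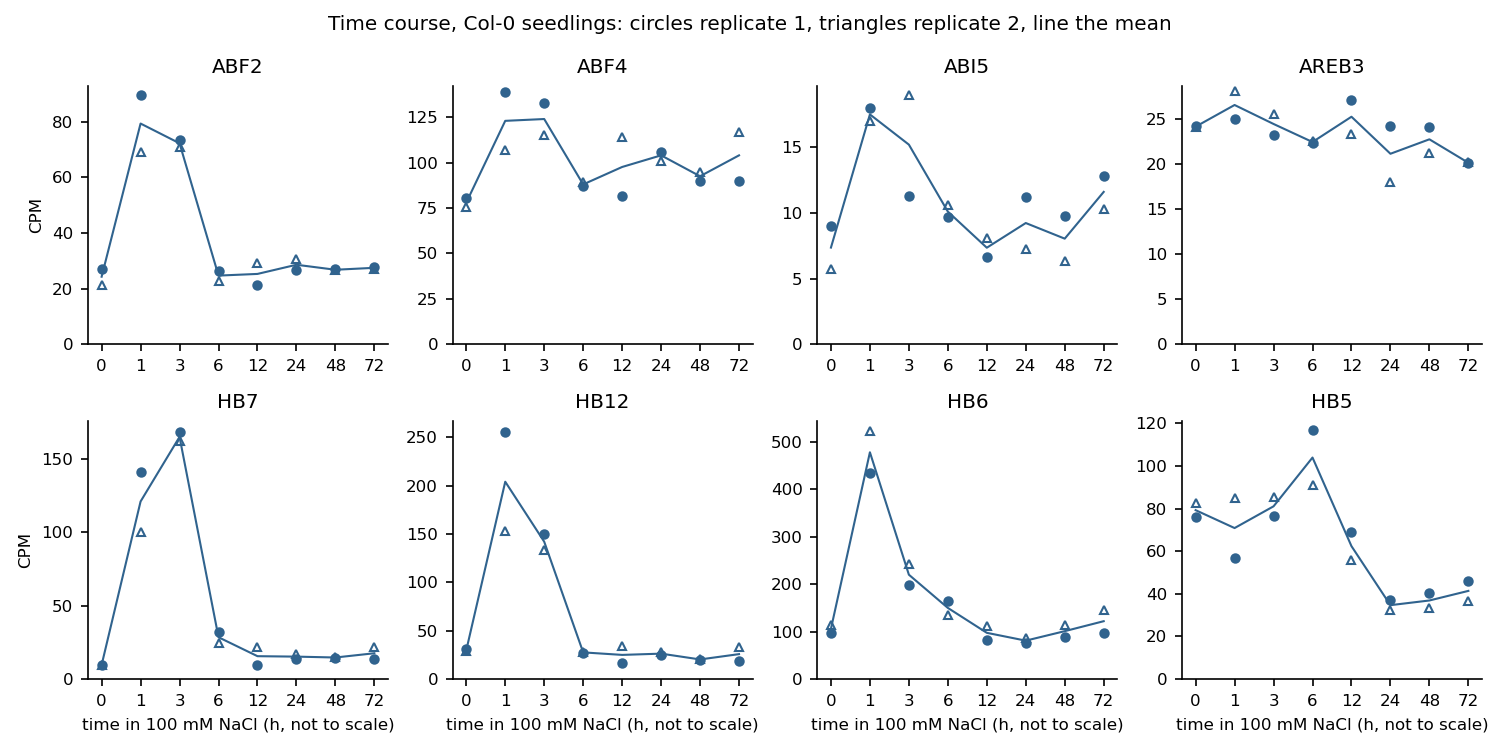
CPM of 8 genes in each library of the Col-0 time course against time in 100 mM NaCl (categories, not to scale); circles are replicate 1, triangles replicate 2 and the line joins the means. HB7 stands at 168 and 162 CPM at 3 h, against 9.68 and 9.54 CPM at 0 h, and has a mean of 28.5 CPM at 6 h; HB5 is lowest from 24 h on and AREB3 stays between 18 and 28.1 CPM.

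HB7 had the largest fold change of the 8. Its level was 9.68 and 9.54 CPM at 0 h, 141 and 100 CPM at 1 h, 168 and 162 CPM at 3 h, and 32.2 and 24.8 CPM at 6 h. From 12 to 72 h it lay between 9.34 and 21.8 CPM, which overlaps the 0 h libraries at 12 h only. The log2 change against 0 h was 3.65 (SE 0.36, adjusted p = 3.16e-05) at 1 h, 4.10 (SE 0.36, adjusted p = 2.46e-05) at 3 h and 1.57 (SE 0.34, adjusted p = 0.0182) at 6 h. The last of these was not called when either 0 h library or replicate 1 at 6 h was left out (adjusted p = 0.103 to 0.145). Between 3 and 6 h HB7 fell by 2.54 on the log2 scale (SE 0.34, adjusted p = 0.00103).

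HB12, the near relative of HB7, had its highest mean at 1 h. Its level was 30.8 and 28.9 CPM at 0 h, 255 and 153 CPM at 1 h, 150 and 133 CPM at 3 h, and 27.4 and 27.8 CPM at 6 h. The 1 h and 3 h libraries did not overlap with those of any other time, and by 6 h both libraries were below the 0 h level. The log2 change was 2.77 (SE 0.34, adjusted p = 0.000159) at 1 h and 2.25 (SE 0.33, adjusted p = 0.000688) at 3 h. HB12 then fell by 2.36 between 3 and 6 h (SE 0.34, adjusted p = 0.0016). From 12 to 72 h it ranged from 16.2 to 33.7 CPM, and no time in that span was called against 0 h.

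HB6 was highest at 1 h. It had 96.8 and 115 CPM at 0 h, 434 and 522 CPM at 1 h, 198 and 242 CPM at 3 h, and 165 and 135 CPM at 6 h. The log2 change was 2.18 (SE 0.23, adjusted p = 5.6e-05) at 1 h and 1.06 (SE 0.22, adjusted p = 0.00671) at 3 h. Among the 8 genes it was the only one called lower at 3 h than at 1 h (log2 change -1.12, SE 0.22, adjusted p = 0.00758; 5.5% of all genes were called lower there). That step was not called without replicate 1 at 3 h (adjusted p = 0.0721) or replicate 2 at 1 h (adjusted p = 0.0511), and the 3 h change against 0 h was not called without replicate 1 at 0 h (adjusted p = 0.0714). From 12 to 72 h HB6 lay between 76.3 and 146 CPM, around its 0 h level.

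HB5 gave no call in the first 12 h and fell later. It had 76 and 82.7 CPM at 0 h, 57 and 84.8 CPM at 1 h, 76.7 and 85.5 CPM at 3 h, and 117 and 90.9 CPM at 6 h. It then had 69.2 and 55.7 CPM at 12 h, 37 and 32.3 CPM at 24 h, 40.3 and 33.6 CPM at 48 h, and 46.2 and 36.6 CPM at 72 h. The last 3 times did not overlap with any earlier one. HB5 fell, with log2 changes of -1.19 at 24 h (SE 0.21, adjusted p = 0.00392), -1.10 at 48 h (SE 0.21, adjusted p = 0.00333) and -0.94 at 72 h (SE 0.21, adjusted p = 0.00714), and was the only one of the 8 called at those times. Of all genes, 6.45% were called higher and 6.15% lower at 24 h. These shares were 10.4% higher and 11.6% lower for 48 h, and 12.3% higher and 12.5% lower for 72 h. Without replicate 2 of the later time the fall was not called at 24 h (adjusted p = 0.0587) or 72 h (adjusted p = 0.0679). The summed level of 3 shoot markers (RBCS1A, LHCB1.3, RCA) was 36125 to 45656 CPM from 24 to 72 h, against 52926 to 77902 CPM at 0 h, and that of 4 root markers was 11.6 to 22.8 CPM, against 21.2 to 32.7 CPM. Their part in the HB5 result was not tested.

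Among the bZIP genes, ABF2 (also called AREB1) was high at 1 and 3 h and near its 0 h level at 6 h. It had 27.1 and 21.4 CPM at 0 h, 89.5 and 69.2 CPM at 1 h, 73.4 and 71.1 CPM at 3 h, and 26.5 and 22.9 CPM at 6 h. The 1 h and 3 h libraries overlapped with each other and with no other time, and from 6 to 72 h the range was 21.3 to 30.5 CPM. The log2 change was 1.71 (SE 0.18, adjusted p = 5.58e-05) at 1 h and 1.57 (SE 0.18, adjusted p = 0.000116) at 3 h. Between 3 and 6 h it fell by 1.55 (SE 0.18, adjusted p = 0.000508). ABF2, HB12 and HB7 were the 3 of 8 genes called lower in that step, against 3.37% of all genes.

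ABF4 (also called AREB2) changed least among the 6 that rose. It had 80.7 and 75.3 CPM at 0 h, 139 and 107 CPM at 1 h, 133 and 115 CPM at 3 h, and 86.9 and 89.2 CPM at 6 h. All later libraries lay between 81.5 and 117 CPM, above both 0 h libraries. The log2 change was 0.66 (SE 0.18, adjusted p = 0.0288) at 1 h and 0.67 (SE 0.18, adjusted p = 0.0267) at 3 h. The call at 1 h was lost without either 0 h library or replicate 1 at 1 h (adjusted p = 0.101 to 0.177), and that at 3 h without either 0 h library or replicate 1 at 3 h (adjusted p = 0.0964 to 0.144).

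ABI5 was counted with 115 to 427 reads a library. It had 8.99 and 5.74 CPM at 0 h, 18 and 17 CPM at 1 h, 11.3 and 19 CPM at 3 h, and 9.66 and 10.6 CPM at 6 h. The log2 change was 1.25 (SE 0.31, adjusted p = 0.0166) at 1 h and 1.03 (SE 0.31, adjusted p = 0.0408) at 3 h. The call at 1 h was lost without replicate 2 at 0 h (adjusted p = 0.151) or replicate 1 at 1 h (adjusted p = 0.0637), and that at 3 h without replicate 2 at 0 h (adjusted p = 0.258) or at 3 h (adjusted p = 0.287). From 12 to 72 h ABI5 had 6.31 to 12.8 CPM. CRA1, a seed storage protein gene and the only one of 5 seed markers in that table, ranged from 10.2 to 210 CPM over the 16 libraries, and its part in the ABI5 level was not tested.

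AREB3 gave no call at any of the 7 times. Its 0 h libraries had 24.2 and 24.1 CPM, its 1 h libraries 24.9 and 28.1 CPM and its 72 h libraries 20.1 and 20.2 CPM. At 1 h the log2 change was 0.13 with a 95% confidence interval (CI) of -0.19 to 0.46, and at 3 h it was 0.01 (95% CI -0.31 to 0.34).

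After 6 h the successive steps gave no call for any of the 8 genes in the edgeR test. Of all genes, 5.21% were called in either direction between 6 and 12 h, 0.428% between 12 and 24 h, 0.026% between 24 and 48 h and 0% between 48 and 72 h, with 3249, 1836, 822 and 1230 genes at an unadjusted p below 0.05. Leaving out 1 library gave 52 to 344 genes between 6 and 12 h (803 with all, 52 without replicate 1 at 6 h), and 0 to 2 between 12 and 24 h (66 with all, 0 without either 24 h library). Between 24 and 48 h it gave 0 to 12 (4 with all, 12 without replicate 2 at 48 h), and between 48 and 72 h 396 without replicate 1 at 72 h (0 with all). DESeq2 called 1375, 359, 25 and 86 genes in these 4 steps. HB5 came nearest, with log2 changes of -0.73 (SE 0.20, adjusted p = 0.0607) from 6 to 12 h and -0.85 (SE 0.21, adjusted p = 0.1) from 12 to 24 h.

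In order of mean level, ABF2, HB12 and HB6 were highest at 1 h, ABI5 likewise, ABF4 and HB7 at 3 h, and HB5 at 6 h. For ABF2, ABF4 and ABI5 the 1 h and 3 h libraries overlapped, so their order is not resolved, whereas for HB7, HB12 and HB6 they did not, though only HB6 was called between 1 and 3 h. Below the peak, neighbouring times mostly overlapped. At 6 h HB7 still stood at 17.2% of its peak mean, HB12 at 13.5%, HB6 at 31.4%, ABF2 at 31.1%, ABI5 at 57.8% and ABF4 at 71.2%; at 0 h these shares were 5.82%, 14.6%, 22.1%, 30.6%, 42% and 63.1%.

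The mutant experiment sampled 2 h and 24 h and adds ABF1 and ABF3. In the line labelled wrky25/33, 5 of 10 genes rose by 2 h (3.61% of all genes were called higher and 2.25% lower), and in Col-0 6 of 10 did (5.76% higher, 3.83% lower). HB7, HB12, ABF3, ABI5 and ABF2 were called in both genotypes and HB6 in Col-0 only. With the batch as a block HB6 was called in the line labelled wrky25/33 too, and its difference between genotypes was itself not called. The median log2 change of the 10 was 1.05 in that line and 1.27 in Col-0, with all genes at -0.03 in both. At 24 h, 3 of 10 genes (HB7, HB12 and ABI5) were called higher in the line labelled wrky25/33 (10.1% of all genes higher, 8.43% lower) and 2 of 10 (HB7 and HB12) in Col-0 (10.4% higher, 8.34% lower). No gene of the 10 was called lower than at 0 h.

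**Figure D2:**
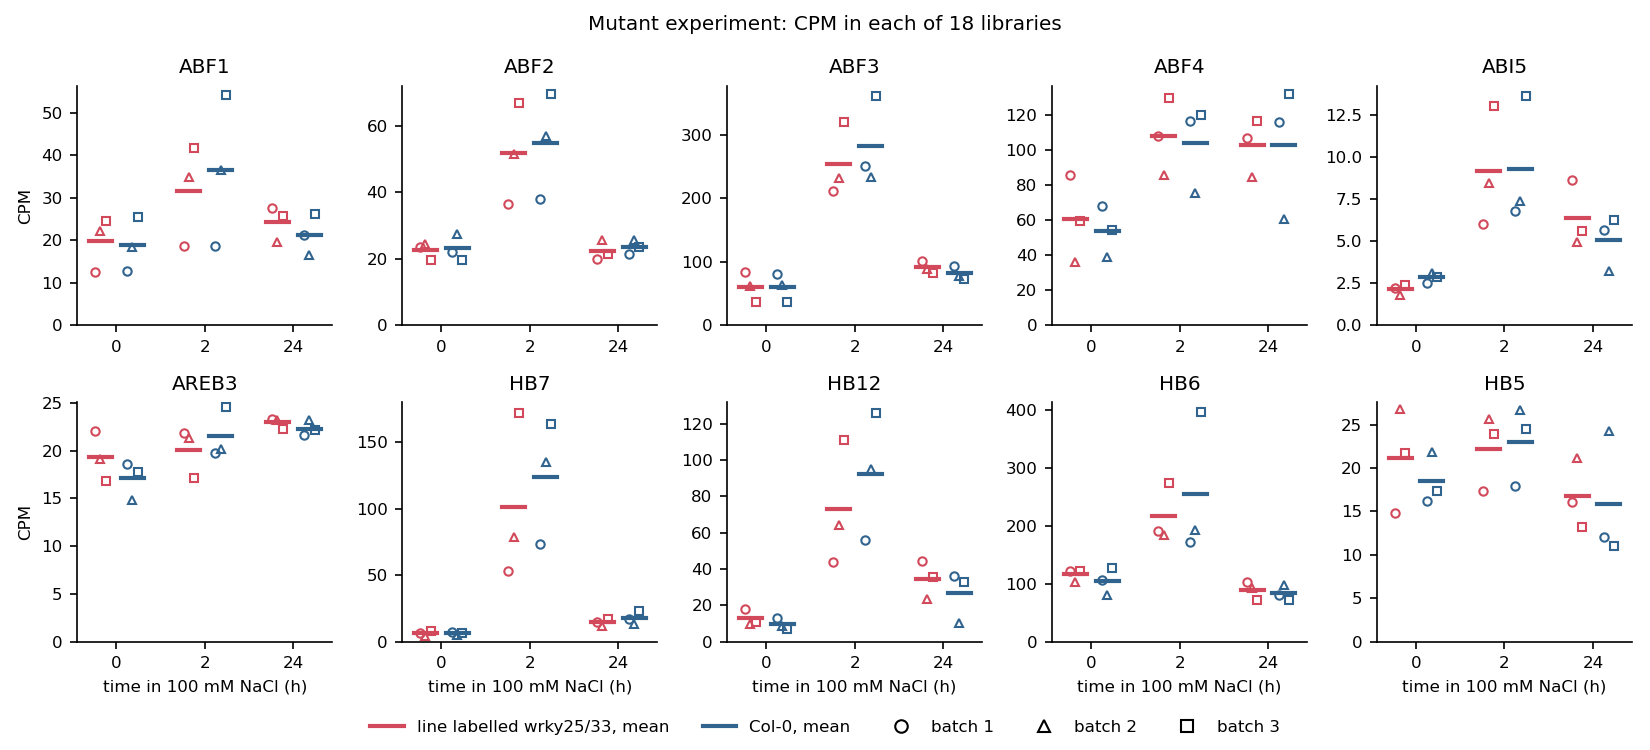
CPM of the 10 genes in each of the 18 libraries of the mutant experiment against time in 100 mM NaCl; the line labelled wrky25/33 is red and left of Col-0, which is blue, bars are means and symbols are batches. At 2 h the batch 3 library is highest for 8 of 10 genes in the line labelled wrky25/33 and for 9 of 10 in Col-0.

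HB7 was again the gene that rose most. In the line labelled wrky25/33 it had 6.54, 4.39 and 7.67 CPM at 0 h, 53.5, 78.7 and 172 CPM at 2 h and 14.5, 12.1 and 17.1 CPM at 24 h. Col-0 had 7.23, 5 and 6.64 CPM at 0 h, 73.6, 135 and 164 CPM at 2 h and 17.2, 13.4 and 23.1 CPM at 24 h. All 2 h and 24 h libraries were above all 0 h libraries in both genotypes. At 2 h its log2 change was 4.03 (SE 0.42, adjusted p = 5.63e-05) in the line labelled wrky25/33 and 4.31 (SE 0.43, adjusted p = 2.78e-05) in Col-0. At 24 h it was 1.23 (SE 0.39, adjusted p = 0.0377) in that line and 1.51 (SE 0.39, adjusted p = 0.0153) in Col-0, and within batches 1.14, 1.45 and 1.15 in that line and 1.24, 1.40 and 1.78 in Col-0. The 24 h call in that line was lost without any one of the 3 libraries at 0 h or without batch 1 or 3 at 24 h (adjusted p = 0.0623 to 0.141). The Col-0 call was lost without batch 2 at 0 h (adjusted p = 0.0666) or batch 3 at 24 h (adjusted p = 0.0701). These fits with a library left out do not use the pairing of libraries by batch.

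HB12 had 17.9, 9.92 and 11 CPM at 0 h, 44.1, 64.1 and 111 CPM at 2 h and 44.6, 23.2 and 35.8 CPM at 24 h in the line labelled wrky25/33. Col-0 libraries had 12.8, 8.62 and 7 CPM at 0 h, 56.1, 95 and 126 CPM at 2 h and 36.2, 10.5 and 33.1 CPM at 24 h. The 24 h and 0 h libraries overlapped in Col-0, where batch 2 had 10.5 CPM at 24 h, and did not overlap in the line labelled wrky25/33. At 2 h its log2 change was 2.51 (SE 0.47, adjusted p = 0.00483) in the line labelled wrky25/33 and 3.29 (SE 0.48, adjusted p = 0.000624) in Col-0. At 24 h it was 1.42 (SE 0.45, adjusted p = 0.0398) in that line and 1.49 (SE 0.46, adjusted p = 0.0331) in Col-0. In both genotypes the 24 h call was lost without batch 2 or 3 at 0 h or batch 1 or 3 at 24 h, with adjusted p of 0.0867 to 0.142 in the line labelled wrky25/33 and 0.104 to 0.14 in Col-0.

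HB6 had 122, 103 and 121 CPM at 0 h, 191, 184 and 273 CPM at 2 h and 102, 92.8 and 71.3 CPM at 24 h in the line labelled wrky25/33. Col-0 had 106, 79.8 and 127 CPM at 0 h, 171, 193 and 397 CPM at 2 h and 81, 97.1 and 72.3 CPM at 24 h. All 2 h libraries were above the 0 h and 24 h libraries in both genotypes. The log2 change at 2 h was 0.90 (SE 0.28, adjusted p = 0.0718) in the line labelled wrky25/33, and with the batch as a block its adjusted p was 0.0271. In Col-0 it was 1.29 (SE 0.28, adjusted p = 0.0092), a call lost without the batch 3 library at 2 h (log2 change 0.81, adjusted p = 0.0599) or the batch 2 library at 0 h (adjusted p = 0.054).

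HB5 had 14.8, 26.8 and 21.7 CPM at 0 h, 17.3, 25.6 and 23.9 CPM at 2 h and 16.1, 21.1 and 13.2 CPM at 24 h in the line labelled wrky25/33. In Col-0 it had 16.2, 21.8 and 17.3 CPM at 0 h, 17.9, 26.7 and 24.5 CPM at 2 h and 12, 24.3 and 11 CPM at 24 h. Libraries of all times overlapped, and batch 2 was the highest of its group in 6 of 6 groups. At 24 h the log2 change was -0.33 (95% CI -0.96 to 0.30) in the line labelled wrky25/33 and -0.23 (95% CI -0.86 to 0.41) in Col-0. Between 2 h and 24 h in Col-0 it was -0.54 (SE 0.30, adjusted p = 0.255), and with the batch as a block its adjusted p was 0.0277. The blocked fit called 5390 of 19316 genes in that step, against 2577 without the block.

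ABF3, an ABF known for its role in drought tolerance, was the bZIP gene that rose most in Col-0. In the line labelled wrky25/33 it had 84.5, 61.5 and 36.4 CPM at 0 h, 212, 232 and 319 CPM at 2 h and 102, 89.5 and 82.9 CPM at 24 h. In Col-0 it had 81, 63.6 and 36.8 CPM at 0 h, 250, 234 and 360 CPM at 2 h and 94.1, 77.8 and 73.1 CPM at 24 h. Batch 3 was lowest at 0 h and highest at 2 h in both genotypes. The log2 change at 2 h was 2.06 (SE 0.31, adjusted p = 0.00108) in the line labelled wrky25/33, with 1.33, 1.91 and 3.13 in batches 1, 2 and 3. In Col-0 it was 2.22 (SE 0.31, adjusted p = 0.000453), with 1.63, 1.88 and 3.29 in the batches. At 24 h ABF3 was not called against 0 h in either genotype.

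ABI5 had 2.24, 1.8 and 2.4 CPM at 0 h, 6.03, 8.45 and 13 CPM at 2 h and 8.62, 4.94 and 5.58 CPM at 24 h in the line labelled wrky25/33. In Col-0 it had 2.52, 3.13 and 2.88 CPM at 0 h, 6.79, 7.38 and 13.6 CPM at 2 h and 5.66, 3.25 and 6.23 CPM at 24 h. All libraries in salt were above all 0 h libraries in both genotypes. The log2 change at 2 h was 2.09 (SE 0.35, adjusted p = 0.00247) in the line labelled wrky25/33 and 1.70 (SE 0.34, adjusted p = 0.00566) in Col-0. At 24 h it was 1.57 (SE 0.35, adjusted p = 0.00791) in the line labelled wrky25/33 and 0.82 (SE 0.34, adjusted p = 0.105) in Col-0. Seed markers were near 0 in most libraries: the summed level of 5 was at most 0.64 CPM in Col-0, and in the line labelled wrky25/33 it reached 76.9 CPM in batch 2 at 2 h and 9.6 CPM in batch 1 at 24 h. In the first of those ABI5 lay between the other 2 batches; in the second it was the highest of the 3, and the part of seed RNA in it was not tested.

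ABF2 had 23.6, 24.4 and 19.6 CPM at 0 h, 36.4, 51.6 and 66.9 CPM at 2 h and 20, 25.6 and 21.4 CPM at 24 h in the line labelled wrky25/33. In Col-0 it had 22.2, 27.4 and 19.8 CPM at 0 h, 37.9, 57 and 69.4 CPM at 2 h and 21.6, 25.6 and 23.5 CPM at 24 h. The 2 h libraries overlapped with none of the others. The log2 change at 2 h was 1.20 (SE 0.23, adjusted p = 0.00591) in the line labelled wrky25/33 and 1.24 (SE 0.23, adjusted p = 0.0034) in Col-0, and at 24 h it was -0.01 and 0.02.

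ABF4, ABF1 and AREB3 gave no call against 0 h in either genotype, and their counts carry a further limit. Summing the 2 strand-specific columns of the deposited sheets gave 71.5% more reads for ABF1, 64.2% more for ABF4 and 17.5% more for AREB3 than the unstranded column used here, and at most 1.98% more for the other 7 genes. Without strand, reads of a gene and of one that overlaps it on the other strand cannot be told apart, so the values of these 3 genes are uncertain. ABF4 had 85.7, 36.5 and 59.8 CPM at 0 h, 108, 85.9 and 130 CPM at 2 h and 107, 84.6 and 117 CPM at 24 h in the line labelled wrky25/33, and 68.3, 38.9 and 54.8 CPM, 117, 75.6 and 120 CPM and 116, 61.1 and 132 CPM in Col-0. Batch 2 was lowest in each of these groups, and every batch was higher at 2 h and at 24 h than at 0 h. With the batch as a block, ABF4 was called higher at 2 h in the line labelled wrky25/33 (log2 change 0.83, adjusted p = 0.00235, against 0.153 without the block) and in Col-0 (0.95, adjusted p = 0.00104, against 0.0792). It was likewise called with the block at 24 h in the line labelled wrky25/33 (0.76, adjusted p = 0.00179, against 0.11) and in Col-0 (0.93, adjusted p = 0.000958, against 0.0563). The blocked fit called 3475 of 19316 genes at 2 h in that line and 4823 in Col-0, against 1131 and 1851 without the block. At 24 h it called 7021 and 6895, against 3571 and 3616.

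ABF1 had 12.6, 22.2 and 24.5 CPM at 0 h and 18.6, 34.9 and 41.6 CPM at 2 h in the line labelled wrky25/33, and 12.8, 18.5 and 25.6 CPM and 18.6, 36.6 and 54.2 CPM in Col-0. The groups overlapped, but each batch was higher at 2 h than at 0 h. The log2 change at 2 h was 0.68 (SE 0.38, adjusted p = 0.334) in the line labelled wrky25/33 and 0.94 (SE 0.38, adjusted p = 0.131) in Col-0, where the blocked fit gave an adjusted p of 0.0232. From the summed strand columns the Col-0 change was 0.60 (adjusted p = 0.067). AREB3 ranged from 14.8 to 24.6 CPM over all 18 libraries. Its largest log2 change was 0.39 in Col-0 at 24 h (SE 0.15, adjusted p = 0.0781), where the blocked fit gave an adjusted p of 0.0387.

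Several of the genes that rose by 2 h were lower again at 24 h. In the line labelled wrky25/33 4 of 10 genes were called lower at 24 h than at 2 h (6.34% of all genes lower, 6% higher), and in Col-0 5 of 10 (6.93% lower, 6.41% higher). HB7, ABF3, HB6 and ABF2 were called in both genotypes. HB7 had a log2 change of -2.80 in the line labelled wrky25/33 (SE 0.40, adjusted p = 0.000362) and of -2.80 in Col-0 (SE 0.40, adjusted p = 0.00037). ABF3 had -1.48 in that line (SE 0.30, adjusted p = 0.00499) and -1.79 in Col-0 (SE 0.31, adjusted p = 0.00143). For HB12 the change was -1.08 (SE 0.44, adjusted p = 0.129) in the line labelled wrky25/33 and -1.80 (SE 0.45, adjusted p = 0.0159) in Col-0; the Col-0 call was lost without batch 3 at 2 h (adjusted p = 0.0727). ABI5 in Col-0 changed by -0.88 (adjusted p = 0.0976; 0.0378 in the blocked fit). ABF4 changed by -0.07 in the line labelled wrky25/33 and by -0.02 in Col-0 (95% CI -0.75 to 0.61 and -0.70 to 0.66), so its 24 h level was not resolved from its 2 h level.

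Without batch 3 fewer genes were called, among the 10 and among all genes. With both genotypes refitted without it, an alternative chosen after seeing the data, 2 of 10 genes (HB7 and ABF3) were called higher at 2 h in the line labelled wrky25/33 and 4 (HB7, ABF3, HB6 and HB12) in Col-0. Over all genes the calls in either direction at 2 h then numbered 173 in that line (1131 with all batches) and 473 in Col-0 (1851). The log2 changes of the genes that lost their call in the line labelled wrky25/33 were 1.97 for HB12, 1.85 for ABI5 and 0.88 for ABF2, against 2.51, 2.09 and 1.20 with all batches. In Col-0 those that lost it had 1.32 for ABI5 and 0.94 for ABF2, against 1.70 and 1.24. At 24 h 1 (ABI5) was called in that line, with 441 of all genes called (3571 with all batches), and 0 in Col-0, with 349 (3616). HB7 then had 1.29 in that line and 1.33 in Col-0, and HB12 1.29 and 1.13. HB7, ABF3 and HB6 were then the 3 genes called lower at 24 h than at 2 h, in both genotypes, with 805 of all genes called in the line labelled wrky25/33 (2384 with all batches) and 698 in Col-0 (2577). The summed level of 5 root markers was 13.2 to 20 CPM at 2 h, against 5 to 6.76 CPM at 0 h, in the line labelled wrky25/33, and 11.2 to 13.5 CPM, against 4.53 to 8.37 CPM, in Col-0. In the time course 4 root markers summed to 35.7 to 51.7 CPM at 1 h, against 21.2 to 32.7 CPM at 0 h. The markers did not all move one way. TIP2;3 had 15.1 to 19.8 CPM at 1 h, against 3.8 to 6.29 CPM at 0 h, and MYB36 had 10.9 to 14.9 CPM, against 5.63 to 7.19 CPM. CASP1 had 9 to 15.3 CPM, against 9.16 to 15.4 CPM, and COBL9, a root hair gene, was lower at 0.676 to 1.7 CPM, against 2.57 to 3.84 CPM. At 2 h of the mutant experiment TIP2;3 had 0.924 to 6.77 CPM in the line labelled wrky25/33, against 0 CPM at 0 h, and CASP1 had 7.47 to 10 CPM, against 2.76 to 3.44 CPM. EXPA7, also of root hairs, had at most 0.0492 CPM in Col-0, against 0.0476 to 0.256 CPM at 0 h. Of these markers, COBL9 had no read at 24 h in either genotype and TIP2;3 none at 0 h in the line labelled wrky25/33. The part of the root markers in the results was not tested.

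The 2 genotypes were compared directly. None of the 10 genes was called different between the line labelled wrky25/33 and Col-0 at 0, 2 or 24 h in the edgeR test (adjusted p of 1 for each), where 0.155%, 0.176% and 0.181% of all genes were called and 207, 463 and 502 genes had an unadjusted p below 0.05. The difference between genotypes in the change under salt was called for 0% of genes at 2 h and for 0% at 24 h, with 80 and 99 genes at an unadjusted p below 0.05. DESeq2, the blocked fit and the fit of each contrast's own groups likewise called none of the 10.

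**Figure D3:**
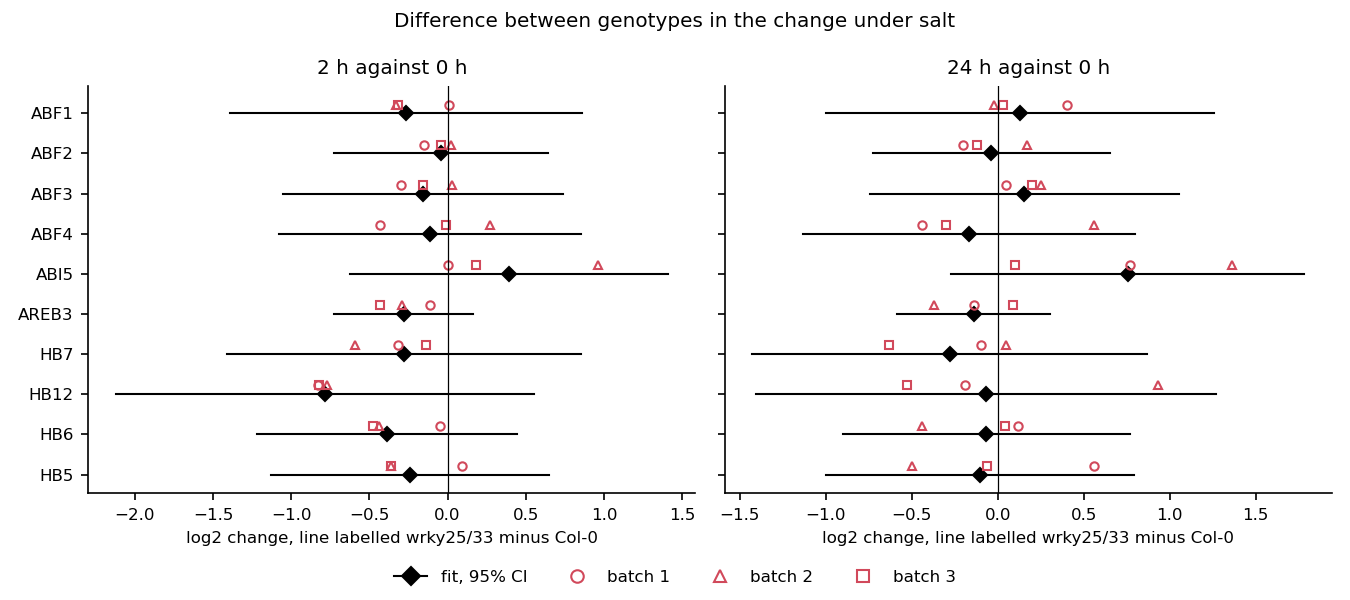
Difference between the line labelled wrky25/33 and Col-0 in the log2 change against 0 h for the 10 genes at 2 h and 24 h; black diamonds with lines are the fit and its 95% confidence interval, red symbols the 3 batches. All 20 intervals hold 0, and HB12 at 2 h has its 3 batches at -0.83, -0.77 and -0.82.

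The intervals come from the fit without the batch block, which does not use the pairing of libraries by batch. Their width limits what that fit shows. For HB12 at 2 h the change in the line labelled wrky25/33 minus that in Col-0 was -0.79 on the log2 scale (95% CI -2.12 to 0.55), with differences of -0.83, -0.77 and -0.82 within the 3 batches. At 24 h its difference was -0.07 (95% CI -1.41 to 1.27), with batches at -0.19, 0.93 and -0.53. ABI5 differed by 0.39 (95% CI -0.63 to 1.41) at 2 h and by 0.75 (95% CI -0.27 to 1.78) at 24 h, where the batches gave 0.77, 1.36 and 0.10. HB7 differed by -0.28 (95% CI -1.41 to 0.85) at 2 h. ABF2 was the most tightly measured of the genes that rose, at -0.04 (95% CI -0.73 to 0.64). None of these differences was called.

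Between the experiments, which differ in table, times and batches, values are given side by side without a test. The log2 change of HB7 was 3.65 at 1 h and 4.10 at 3 h in the time course and 4.31 at 2 h in Col-0 of the mutant experiment. HB12 had 2.77, 2.25 and 3.29, HB6 2.18, 1.06 and 1.29, ABF2 1.71, 1.57 and 1.24, ABI5 1.25, 1.03 and 1.70, and ABF4 0.66, 0.67 and 0.95 at 1, 3 and 2 h. HB7, HB12, ABF2 and ABI5 were the 4 genes called at all 3 times and in both genotypes. At 24 h HB12 was 1.49 in Col-0 of the mutant experiment and -0.18 in the time course, and HB5 was -0.23 and -1.19. The summed shoot markers were higher at 24 h in every batch of Col-0 of the mutant experiment, with 52258, 53265 and 35876 CPM, against 40706, 35081 and 24012 CPM at 0 h. In the time course they were lower, with 45656 and 40393 CPM at 24 h, against 52926 and 77902 CPM at 0 h. The summed root markers were lower at 24 h in both, with 2.5 to 3.68 CPM, against 4.53 to 8.37 CPM, in Col-0 of the mutant experiment and 13.7 to 14.5 CPM, against 21.2 to 32.7 CPM, in the time course. Their part in these values was not tested. HB5 itself had 76 and 82.7 CPM at 0 h in the time course, and 16.2, 21.8 and 17.3 CPM in Col-0 of the mutant experiment. HB12 had means of 29.8 CPM at 0 h and 26.3 CPM at 24 h in the time course. In Col-0 of the mutant experiment its means were 9.46 and 26.6 CPM. The experiments hold unlike counts that were scaled separately, so CPM cannot be compared directly between them.

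**Figure D4:**
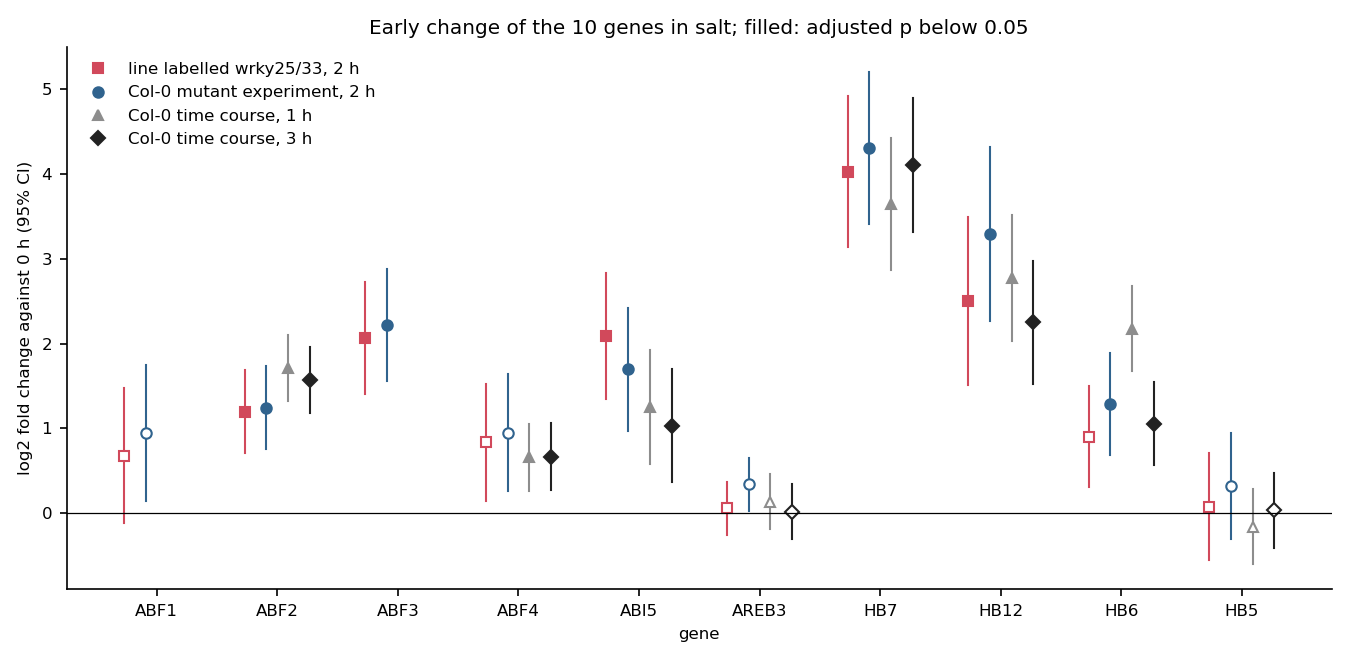
Log2 fold change against 0 h with 95% confidence interval for each gene, in the line labelled wrky25/33 at 2 h, in Col-0 of the mutant experiment at 2 h and in the time course at 1 and 3 h; filled symbols have an adjusted p below 0.05. HB7 lies highest in all 4 comparisons, between 3.65 and 4.31, and AREB3 and HB5 are open throughout.

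The rest of the ABA pathway was read from 8 lists of 81 genes, also chosen with earlier results of these data known. Of the other group A bZIP genes 1 of 4 tested rose at 1 h, where 8.74% of all genes were called higher (GBF4, a G-box binding factor, log2 change 0.55, adjusted p = 0.0489) and none at 3 h; none of 5 did at 2 h in either genotype. GBF4 and EEL were the 2 of 5 called higher at 24 h in both genotypes, where 10.1% of all genes were called higher in the line labelled wrky25/33 and 10.4% in Col-0. At 24 h of the time course none of the 4 tested was called, with GBF4 at 0.34 (adjusted p = 0.216) and EEL at 0.63 (adjusted p = 0.271). EEL, a seed bZIP that competes with ABI5, rose at 24 h in the line labelled wrky25/33 (1.17, adjusted p = 0.0393) and in Col-0 (1.54, adjusted p = 0.0111). FDP, a relative of the flowering factor FD, was called once, lower at 48 h (-1.72, adjusted p = 0.038). Its mean was low, with 0.577 CPM at 0 h and 0.171 CPM at 48 h.

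Of the other HD-ZIP class I genes, 1 of 9 rose and 1 fell at 1 h, close to the 8.74% higher and 5.45% lower of all genes, and 2 of 10 rose at 2 h in each genotype, where 3.61% of all genes were called higher in the line labelled wrky25/33 and 5.76% in Col-0. HB21, which promotes ABA accumulation in axillary buds, rose by 3.48 at 1 h (SE 0.33, adjusted p = 2.5e-05), by 2.07 at 2 h in the line labelled wrky25/33 (adjusted p = 0.047) and by 2.10 in Col-0 (adjusted p = 0.0322). Its levels were low, with means of 0.349 CPM at 0 h and 3.95 CPM at 1 h of the time course. At 2 h HB21 had 2.07 CPM in the line labelled wrky25/33, against 0.509 CPM at 0 h, and 1.82 CPM in Col-0, against 0.401 CPM. HB1 rose at 2 h by 0.85 in the line labelled wrky25/33 (adjusted p = 0.0438) and by 1.35 in Col-0 (adjusted p = 0.00245). In the time course HB1 rose by 0.59 at 3 h (adjusted p = 0.0311) and was lower than at 0 h by 1.13 at 24 h (adjusted p = 0.002). At 24 h of the mutant experiment it was not called, with -0.17 in the line labelled wrky25/33 and -0.28 in Col-0. HB16 fell at 24 h in the line labelled wrky25/33 (-0.88, adjusted p = 0.0167) and in Col-0 (-0.67, adjusted p = 0.0499).

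All 8 clade A PP2C genes tested rose at 2 h in both genotypes, with a median log2 change of 3.33 in the line labelled wrky25/33 and 3.68 in Col-0, and 6 of 7 rose at 1 h (median 2.47). At 2 h 3.61% of all genes were called higher and 2.25% lower in that line, and 5.76% and 3.83% in Col-0. At 1 h these shares were 8.74% and 5.45%. HAI2 had 21, 27 and 97 reads at 2 h in the line labelled wrky25/33 against 0, 1 and 0 at 0 h, and 13, 104 and 102 reads at 2 h in Col-0 against 0, 0 and 0 at 0 h, which is at least 104-fold higher in Col-0, taking 3 counts over the 0 h group as the floor. With HAI2 at that bound the Col-0 median stayed at 3.68. ABI2 rose by 4.00 in the line labelled wrky25/33 (adjusted p = 0.00119) and by 4.13 in Col-0 (adjusted p = 0.000624), and HAB1 by 1.62 (adjusted p = 0.0335) and 1.75 (adjusted p = 0.0171). Of 9 ABA receptor genes 4 fell at 2 h in the line labelled wrky25/33 and 5 in Col-0, and none was called higher. At 1 h 5 of 8 fell and 2 rose. PYL4 had log2 changes of -2.63 at 1 h, -1.97 at 2 h in the line labelled wrky25/33 and -2.62 at 2 h in Col-0, and PYL5 had -1.95, -1.35 and -1.56. PYL7 went the other way at 1 h (2.49, adjusted p = 1.31e-06) and was called higher at every later time of the time course. At 2 h it had 1.10 in the line labelled wrky25/33 (adjusted p = 0.0533) and 0.98 in Col-0 (adjusted p = 0.0641), without overlap with 0 h. At 24 h it was called higher in both, by 1.03 (adjusted p = 0.0358) and 1.05 (adjusted p = 0.0314).

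**Figure D5:**
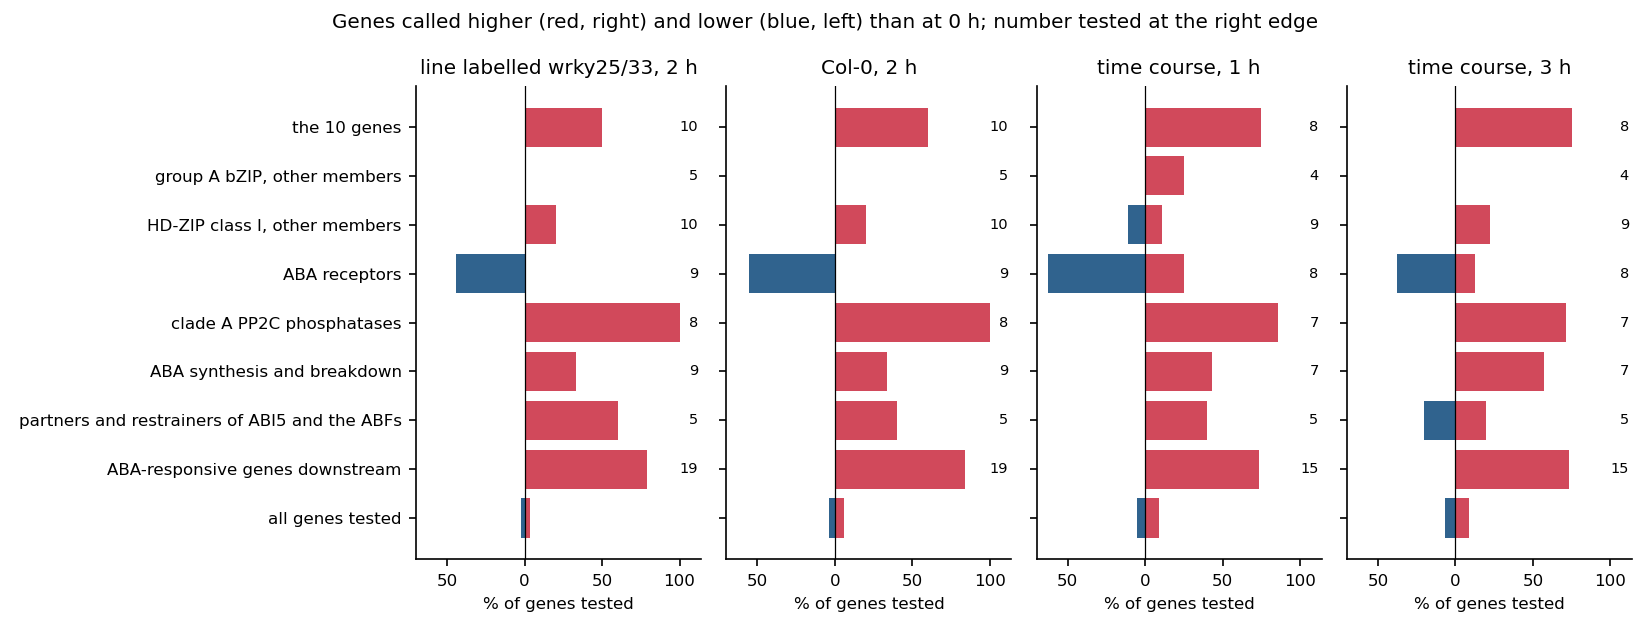
Share of tested genes called higher (red, to the right) and lower (blue, to the left) than at 0 h, for the 10 genes, the pathway lists and all genes tested, in the line labelled wrky25/33 at 2 h, Col-0 at 2 h and the time course at 1 and 3 h. The list of SnRK2 kinases is not drawn. The number tested stands at the right edge of each panel. All 8 PP2C genes are called higher at 2 h in both genotypes, and receptors extend to the left.

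Among the SnRK2 kinases, SnRK2.6 rose at 2 h by 0.73 in the line labelled wrky25/33 (adjusted p = 0.0135) and by 0.90 in Col-0 (adjusted p = 0.00291). SnRK2.3 rose by 0.94 in Col-0 (adjusted p = 0.0168) and had 0.64 (adjusted p = 0.113) in the line labelled wrky25/33. For ABA synthesis and breakdown, 3 of 9 genes rose at 2 h in each genotype and 3 of 7 at 1 h. Of all genes, 3.61% were called higher at 2 h in the line labelled wrky25/33, 5.76% in Col-0 and 8.74% at 1 h. ABA1, zeaxanthin epoxidase, rose by 0.75 in the line labelled wrky25/33 and by 0.66 in Col-0 (adjusted p = 0.0177 and 0.027). CYP707A3, an ABA 8'-hydroxylase, rose by 3.71 at 1 h (adjusted p = 0.000242). At 2 h of the mutant experiment its libraries overlapped with those at 0 h, with 0.12 in the line labelled wrky25/33 (adjusted p = 0.956) and 0.21 in Col-0 (adjusted p = 0.894). In the mutant experiment at 24 h it fell, with -3.31 in the line labelled wrky25/33 (adjusted p = 0.0182) and -3.89 in Col-0 (adjusted p = 0.00953), while at 24 h of the time course it had -0.24 (adjusted p = 0.789). CYP707A4, another, rose by 2.68 at 24 h of the time course (adjusted p = 0.000418). NCED3, the rate-limiting ABA synthesis enzyme under stress, was chosen after its values were seen: it rose by 5.72 at 1 h (SE 0.78, adjusted p = 0.000334), by 4.36 at 2 h in the line labelled wrky25/33 (adjusted p = 0.0177) and by 4.51 in Col-0 (adjusted p = 0.0123), and at 24 h it was not called.

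Of the genes whose products bind or restrain ABI5 and the ABFs, 2 of 5 rose at 1 h, where 8.74% of all genes were called higher. AFP1, an ABI5-binding protein that promotes its breakdown, rose by 3.04 at 1 h (SE 0.21, adjusted p = 4.01e-06), by 2.76 at 2 h in the line labelled wrky25/33 (adjusted p = 0.00273) and by 2.71 in Col-0 (adjusted p = 0.00215). AFP3 rose by 3.14 in the line labelled wrky25/33 and by 3.54 in Col-0 at 2 h, and was still called at 24 h (2.04 and 2.59). TMAC2, of the same family, fell by 1.52 at 3 h (adjusted p = 0.000114). Downstream, 11 of 15 ABA-responsive genes rose at 1 h (median 3.36) and 11 at 3 h (median 4.80), where 8.74% and 8.5% of all genes were called higher. At 2 h 15 of 19 rose in the line labelled wrky25/33 (median 3.63, or 3.55 with a gene at 0 reads set to its bound) and 16 of 19 in Col-0 (median 3.43). The shares of all genes called higher at 2 h were 3.61% in that line and 5.76% in Col-0. At 24 h 7 of 19 rose and 3 fell in that line, where 10.1% of all genes were called higher and 8.43% lower. In Col-0 8 rose and 3 fell, where 10.4% of all genes were called higher and 8.34% lower. P5CS1, which makes proline, rose by 2.70 after 1 h, 4.80 after 3 h and 1.73 after 24 h. In the mutant experiment it was higher at 24 h by 2.78 in the line labelled wrky25/33 and by 2.66 in Col-0. KIN2, a cold- and ABA-induced gene with a close copy KIN1 between which reads may be split, rose by 6.16 at 3 h. KIN2, RD22 and COR15A were the 3 that fell at 24 h of the mutant experiment, RD22 and COR15A being named after their values were seen. KIN2 had -2.23 in the line labelled wrky25/33 and -2.11 in Col-0, RD22 had -2.94 and -2.38, and COR15A had -3.03 and -2.87. At 24 h of the time course the same 3 genes were called higher, KIN2 by 1.29 (adjusted p = 0.0198), COR15A by 5.37 (adjusted p = 0.0231) and RD22 with an adjusted p of 0.0231. ADH1, alcohol dehydrogenase, rose at 24 h by 2.50 in the time course, by 3.60 in the line labelled wrky25/33 and by 4.00 in Col-0.

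Genes with the most similar course were sought among the 13671 tested in both experiments, by Pearson's r of log2 CPM over the 16 time course libraries. The r values are a description only, since libraries of the same time share its changes. Except for HB5 and AREB3, the genes compared were called higher at 1 and 3 h. HB7 lay nearest to RD20, a calcium-binding lipid-droplet protein gene, at 0.976, with 0.684 over the 18 libraries of the mutant experiment. HB12 and ABF2 were among each other's 3 nearest genes, at 0.965 and 0.777. The nearest to HB12 was AT2G46270 (0.969 and 0.918), to HB6 AT2G17840 (0.976 and 0.938) and to HB5 AT2G22840 (0.962 and 0.590). For AREB3 and ABF4, which changed little, the nearest genes of the time course had 0.853 and 0.933, and -0.481 and 0.113 in the mutant experiment.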

How the data were processed

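Seedling RNA was sequenced, and the submitters' processing notes name STAR and TAIR10; no source used here states versions, the annotation or the counting tool. For the time course the authors deposited expected counts per gene, of which 1.4152% were not whole, and these were rounded. For the mutant experiment the deposited counts are raw reads per gene without regard to strand, in a column of each library's sheet. Lines of that sheet that name no gene (3.95 to 5.87% unmapped, 1.34 to 3.89% multimapping, 0.674 to 1.26% with no feature and 4.94 to 5.99% ambiguous) were left out. The fits used edgeR 4.0.16 in R 4.3.3: filterByExpr, TMM, 1 coefficient per group over all groups of an experiment, the quasi-likelihood F-test and Benjamini-Hochberg adjustment over all genes tested. Log2 CPM for likeness used a prior count of 2. DESeq2 1.42.0, other scalings, no filter, only the groups of the contrast, summed strand columns, a replicate block and single libraries left out were tried as alternatives. The code was tested on simulated data with 200 changed genes.

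In the mutant experiment the deposited sheets call the replicate number a batch. Deviations from group means correlated between same-numbered libraries in 45 of 45 pairs (0.17 to 0.75, median 0.37), so the numbers pair the libraries. The fit without the block stays the one reported, so its counts, SEs, intervals and p-values do not use this pairing. Fits with single libraries left out do not use it either, and they leave a batch incomplete. HB6 in Col-0 at 2 h lost its edgeR call without the batch 3 library at 2 h alone (adjusted p = 0.0599). It kept the call in the edgeR fit without all of batch 3 (adjusted p = 0.0284). Blocked values stand beside results whose call they change. Over all genes the blocked fit called more, with the numbers given in the closing section. Replicate libraries differed by more than sampling noise and none were identical. The 10 genes and the pathway lists, whose gene names were written for this work, were chosen with earlier results of these data known. All 10 genes are named, with up to 3 per list, those called in the most comparisons with 0 h. No Arabidopsis sequence, gene length or annotation was used here. Chromatin libraries and other species were not analysed here.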

Additional observations from a re-analysis of the deposited data

Results flagged for a closer look

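HB12 at 24 h against 0 h in Col-0 differed between the experiments. The log2 change was 1.4925 in the mutant experiment and -0.1783 in the time course, where both 24 h libraries lay below both 0 h libraries. The mean levels at 24 h were 26.6 CPM in the mutant experiment and 26.3 CPM in the time course. At 0 h they were 9.46 CPM and 29.8 CPM. The experiments hold unlike counts that were scaled separately, so these levels cannot be compared directly between them. All 3 batches of the mutant experiment were higher at 24 h than at 0 h. The difference was not tested, since the tables were deposited separately, and the experiments differ in batches and number of libraries.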

How the results depend on the processing

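No value with an adjusted p that was called in the main fit or in an alternative changed direction. Of 2804 values, 2716 stayed on their side of the threshold or had no adjusted p, 33 passed it and 55 fell short of it. Changes of direction between values called in neither fit were not counted. ABF2 in Col-0 at 24 h, for example, had a log2 change of 0.02 with all batches and -0.07 without batch 3. The counts of the 10 genes called that moved were these. In Col-0 at 24 h against 0 h the count was 2, and it was 4 with the replicate block, 4 with DESeq2, 0 with only the groups of the contrast, 0 without batch 3 and 0 to 4 with single libraries left out. Over all 19316 genes the blocked fit called 6895 there, against 3616 in the main fit. For 12 h against 6 h the count was 0, and it was 1 with no filter, 1 with a replicate block, 1 with DESeq2, 2 with only the groups of the contrast and 0 to 1 with single libraries left out. DESeq2 gave 2 at 72 h (main 1) and 1 for 24 h against 12 h (main 0). With only the groups of the contrast the counts were 2 at 24 h and 3 at 48 h of the time course (1 each) and 0 for 3 h against 1 h (1). Single libraries left out gave 0 to 1 at 6 h, 24 h and for 3 h against 1 h, 0 to 2 at 72 h, and 1 to 3 in the line labelled wrky25/33 at 24 h. Without batch 3 that line had 2 at 2 h and 1 at 24 h, and Col-0 had 3 for 24 h against 2 h. The cause was not tested.

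Over all genes, the replicate block gave 3475 calls at 2 h in the line labelled wrky25/33 (1131 without it) and 4823 in Col-0 (1851), and at 24 h 7021 (3571) and 6895 (3616). For 24 h against 2 h it gave 5100 (2384) and 5390 (2577). With only the groups of the contrast, Col-0 at 24 h had 61 calls, without batch 3 it had 349, and with single libraries left out 1650 to 6052 (3616 with all libraries). In the time course the pairing by number was weaker and not uniform. Of 56 same-numbered pairs 26 were over 0.1, with a range of -0.18 to 0.61. Their median was 0.09. With 2 libraries a time, the deviations from a group mean mirror each other, so each correlation is counted under both numbers. The median of -0.09 for other numbers is therefore fixed in advance and tells nothing about pairing. The count of libraries closest to their own number, 14 of 16, also takes each time in both its libraries. HB6 was the gene the block added there between 6 and 12 h (blocked edgeR test, adjusted p = 0.0429). Blocking changed no call of the 10 genes other than those named here and in the report. With 2 libraries a time, ABI5 and ABF4 rest on few reads or small changes, and single libraries decide their calls.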
